A study of Caenorhabditis elegans with 18 samples.

Results

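A set of 10 lysozyme genes of *Caenorhabditis elegans* was followed in worms fed on different bacteria for 3 or 10 days, namely *lys-1*, *lys-2*, *lys-3*, *lys-4*, *lys-5*, *lys-7*, *lys-8*, *ilys-2*, *ilys-3* and *ilys-5*. They were taken as all probe sets whose array annotation gives 1 of these symbols alone, which yielded 12 of the 22625 probe sets on the array and 10 of the 17118 gene symbols that it measures. Of the genes, 9 had 1 probe set and *ilys-5* had 3.

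Wild-type N2 worms were fed *Lactobacillus rhamnosus* CNCM I-3690, *Lactobacillus rhamnosus* CNCM I-4317 or *Escherichia coli* OP50, the usual laboratory food and the control diet here. Each diet was sampled after 10 days and after 3 days of feeding, with 3 arrays for each of the 6 groups and 18 arrays in all. Populations were started from embryos of mothers kept on the same diet and were disrupted whole, so every value is an average over all tissues of a pooled worm population. RNA was hybridised to the Affymetrix *C. elegans* Genome Array, and levels are given on the log2 scale of the deposited values. In such bulk samples, fewer cells of a type and less RNA per cell cannot be told apart. The study's methods call the replicates of each condition biological but give more of them than the arrays analysed here, and the labels do not say whether the 3 samples of a group came from separate cultures. Where they did not, p-values measure only the spread between these samples, which may be technical.

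Lysozymes cut the sugar backbone of peptidoglycan, the mesh of the bacterial cell wall. Peptidoglycan is thick and exposed in Gram-positive bacteria such as *L. rhamnosus* and thin, beneath an outer membrane, in Gram-negative bacteria such as *E. coli*. *C. elegans* eats bacteria, and it carries both a protist-like family (*lys*) and an invertebrate-type family (*ilys*) of these enzymes, which are known from the gut and pharynx for digesting food bacteria and for defence against infection.

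Differences were fitted with limma on the whole array, and a call means a Benjamini-Hochberg adjusted p-value under 0.10. At 10 days, *lys-7* and *ilys-2* were lower and *ilys-5* was higher on both *L. rhamnosus* diets than on OP50, and *ilys-3* was called lower on CNCM I-4317. At 3 days, *lys-1* on CNCM I-3690 was the only one of the 10 genes called against OP50. It was 1 of 12 probe sets, where 3.85% of all probe sets were called higher, so this count was near the background. With age, *lys-3*, *lys-7*, *ilys-2* and *ilys-3* rose and *lys-4* and *ilys-5* fell on each of the 3 diets.

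The arrays of a group correlated at r = 0.981 to 0.996 over all probe sets, array medians lay between 1.27 and 1.40, and the first principal component, with 59.5% of the variance, separated the 10-day from the 3-day arrays. Lists of tissue genes also moved between groups. At 10 days the sperm list averaged 1.59 to 3.98 on CNCM I-3690, 1.70 to 3.73 on CNCM I-4317 and 1.54 to 1.90 on OP50. No sperm, intestine, pharynx or oocyte gene was then called against OP50 by limma on either diet, and 1 of 11 body muscle genes was, on CNCM I-3690. At an unadjusted p under 0.05, 15 and 0 of 38 sperm, 5 and 2 of 15 intestine, 1 and 0 of 12 pharynx, 3 and 1 of 11 body muscle, and 0 and 5 of 22 oocyte and eggshell genes passed with CNCM I-3690 and CNCM I-4317. Of all 22625 probe sets 1646 and 2426 passed, so the pharynx count on CNCM I-3690 was near the background. The same held for the intestine and body muscle counts on CNCM I-4317. At 3 days on CNCM I-3690 against OP50, 27 of 38 measured sperm genes were higher, 9 of 22 oocyte and eggshell genes were lower, and 3 of 15 intestine genes were higher and 1 lower. Of all probe sets 3.85% were called higher and 2.27% lower there. Of the intestine genes, 13 of 15 were above the array median on every array. Mean levels over the sperm list were 5.92 to 7.12 on CNCM I-3690, 4.95 to 6.73 on CNCM I-4317 and 3.27 to 4.27 on OP50 at 3 days. The part of these lists in the lysozyme differences was not tested.

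**Figure D1:**
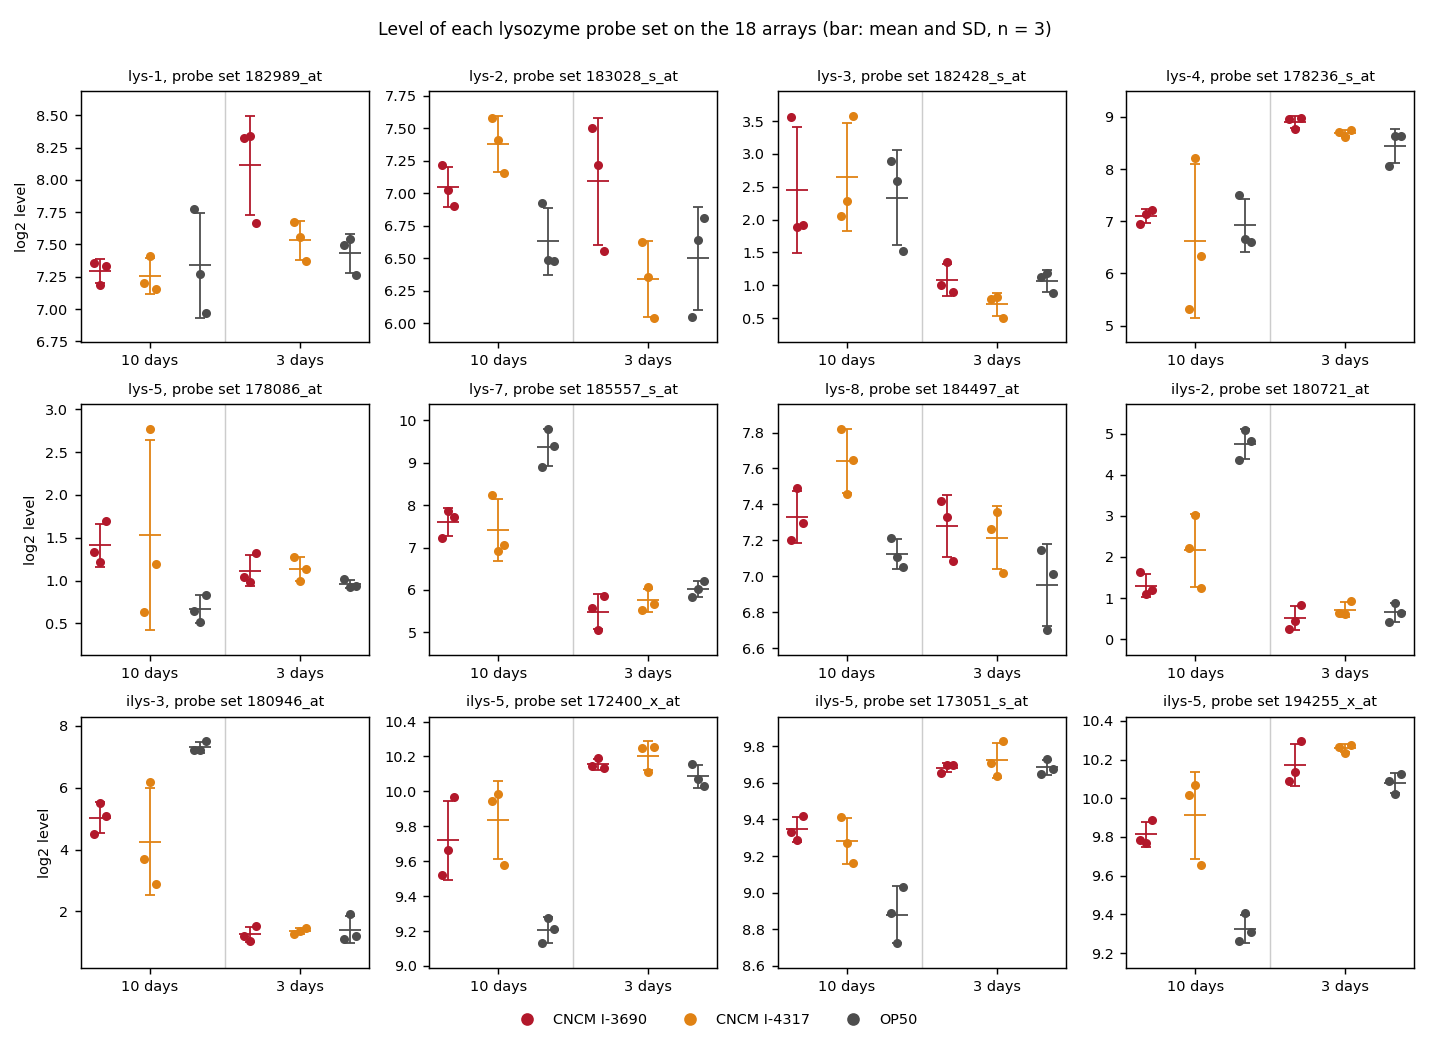
Log2 level of each of the 12 lysozyme probe sets on the 18 arrays, 1 panel for each probe set, with the 10-day groups left of the 3-day groups. Points are arrays, and bars give the mean and SD of 3 arrays; each panel has its own vertical scale. The OP50 arrays at 10 days lie above all others for lys-7, ilys-2 and ilys-3 and below all others for the 3 probe sets of ilys-5.

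*ilys-2* is an invertebrate-type lysozyme. Its level at 10 days was 1.62, 1.10 and 1.19 on CNCM I-3690, then 2.23, 3.02 and 1.23 on CNCM I-4317, and 4.35, 5.09 and 4.81 on OP50. The OP50 arrays were above every array of both other diets, and 2 of 3 arrays on CNCM I-3690 and 1 of 3 on CNCM I-4317 were below their array's median. At 3 days the level was 0.25 to 0.83 on CNCM I-3690, 0.61 to 0.92 on CNCM I-4317 and 0.43 to 0.89 on OP50, all below the median of their array. These groups overlapped, and levels so far down the scale may hold little signal from the gene.

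The 10-day difference from OP50 was -3.44 on CNCM I-3690 (standard error, SE, 0.32, adjusted p = 3.56e-05), and -2.59 on CNCM I-4317 (SE 0.32, adjusted p = 0.00118). These log2 differences, and the changes with age, run from levels near the bottom of the scale, so no fold is given. Both comparisons use the same OP50 arrays. CNCM I-3690 lay 0.85 below CNCM I-4317 at 10 days (95% confidence interval of the difference -1.53 to -0.18, adjusted p = 0.589), which was not called. Between 10 and 3 days *ilys-2* rose by 0.80 on CNCM I-3690 (adjusted p = 0.0852), by 1.44 on CNCM I-4317 (adjusted p = 0.00415) and by 4.10 on OP50 (adjusted p = 1.15e-06). The rise on CNCM I-3690 lost its call when any of 5 of that diet's 6 arrays was left out, all but replicate 3 at 3 days, with adjusted p = 0.109 to 0.258. The age change itself was smaller than on OP50 on both diets, with a difference of changes of -3.30 for CNCM I-3690 (SE 0.45, adjusted p = 0.00438) and -2.66 for CNCM I-4317 (SE 0.45, adjusted p = 0.0338). Without replicate 3 of OP50 at 3 days the second of these had an adjusted p of 0.106. *ilys-2* was the one lysozyme whose age change was called as differing between diets.

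*ilys-3* is an invertebrate-type lysozyme known from the pharynx and intestine, where it takes part in breaking down ingested bacteria and in resistance to Gram-positive species. Its 10-day levels were 4.50, 5.50 and 5.09 on CNCM I-3690, then 3.69, 6.20 and 2.87 on CNCM I-4317, and 7.21, 7.21 and 7.50 on OP50. All 6 *L. rhamnosus* arrays were below the OP50 arrays, and replicate 2 on CNCM I-4317 stood above the other 2 of its group. At 3 days the level was 1.05 to 1.52, 1.27 to 1.48 and 1.10 to 1.92 on the same diets, and the groups overlapped. In each of these 3 groups 2 of 3 arrays were below their array's median, so the size of an age change is set in part by the bottom of the scale.

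Against OP50 at 10 days *ilys-3* fell by 3.05 on CNCM I-4317, 8.31-fold (SE 0.55, adjusted p = 0.0186). Leaving out replicate 2 of that diet made it -4.03 (adjusted p = 1.26e-05), and leaving out replicate 3 made it -2.37 (adjusted p = 0.0785). On CNCM I-3690 the difference was -2.28 (SE 0.55, adjusted p = 0.108), outside the threshold. The difference between the *L. rhamnosus* diets was 0.78 for CNCM I-3690 over CNCM I-4317 (95% interval -0.38 to 1.93, adjusted p = 0.812). Without replicate 2 on CNCM I-4317 it was 1.75 (adjusted p = 0.0860), which passed the threshold. With age *ilys-3* rose by 3.77 on CNCM I-3690, by 2.88 on CNCM I-4317 and by 5.89 on OP50 (SE 0.55 each, adjusted p = 0.000113, 0.00127 and 4.66e-06 in that order). Without replicate 2 at 10 days the rise on CNCM I-4317 was 1.91 (adjusted p = 0.000317). Differences of the age change from that on OP50 were -2.12 on CNCM I-3690 (SE 0.77, adjusted p = 0.251) and -3.01 on CNCM I-4317 (SE 0.77, adjusted p = 0.192), neither called. The second was -3.98 with adjusted p = 0.000778 when replicate 2 of CNCM I-4317 at 10 days was left out.

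*ilys-5*, the third invertebrate-type gene, was read by 3 probe sets, 172400_x_at, 173051_s_at and 194255_x_at, whose suffixes mark probes that may also match other transcripts. The probe sets of *lys-2*, *lys-3*, *lys-4* and *lys-7* also carry the _s_at suffix, so the same limit applies to them. On 194255_x_at the 10-day levels were 9.79, 9.77 and 9.89 on CNCM I-3690, then 10.01, 10.07 and 9.65 on CNCM I-4317, and 9.26, 9.41 and 9.31 on OP50. All *L. rhamnosus* arrays were above the OP50 arrays, and the same held for the other 2 probe sets. At 3 days the 3 probe sets together spanned 9.63 to 10.29 over all diets, and no difference between diets was called at that age.

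On CNCM I-4317 at 10 days *ilys-5* was higher than on OP50 by 0.63, 0.40 and 0.59 on 172400_x_at, 173051_s_at and 194255_x_at (SE 0.12, 0.10 and 0.10; adjusted p = 0.0287, 0.0826 and 0.0170). On CNCM I-3690 the differences were 0.51, 0.47 and 0.49 (adjusted p = 0.102, 0.0486 and 0.0612), so 2 of 3 probe sets were called; 172400_x_at also passed without CNCM I-3690 replicate 1 (0.61, adjusted p = 0.0799). These are the smallest changes among the 10-day calls, at most 1.55-fold, and they leaned on single arrays: 194255_x_at on CNCM I-3690 lost its call without any 1 of the 6 arrays (adjusted p = 0.107 to 0.208), and 173051_s_at without OP50 replicate 2 or any CNCM I-3690 array (adjusted p = 0.110 to 0.194). On CNCM I-4317, 173051_s_at lost its call without OP50 replicate 1 or 2 or any CNCM I-4317 array (adjusted p = 0.111 to 0.256), and 172400_x_at without CNCM I-4317 replicate 1 (adjusted p = 0.1002). In limma fits on only the 10-day arrays, every 10-day call of the 3 probe sets was lost (adjusted p = 0.145 to 0.301). With age all 3 probe sets fell on each diet, by 0.34 to 0.44 on CNCM I-3690, by 0.35 to 0.44 on CNCM I-4317 and by 0.75 to 0.88 on OP50 (adjusted p at most 0.0178, 0.0393 and 0.000185 in that order). On CNCM I-4317, 172400_x_at lost the age call without replicate 1 at 3 days or replicate 3 at 10 days (adjusted p = 0.114 and 0.193), and 194255_x_at without that 10-day array (adjusted p = 0.137), where the 2 changes were -0.24 and -0.22. The differences of the age change from OP50 were 0.36 to 0.51 on the 2 *L. rhamnosus* diets, none called (adjusted p = 0.154 to 0.408).

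*lys-7* encodes a protist-like lysozyme known as a downstream gene of insulin and DAF-16 signalling and as a defence gene of the intestine. Its 10-day levels were 7.23, 7.87 and 7.71 on CNCM I-3690, then 8.25, 6.91 and 7.07 on CNCM I-4317, and 8.90, 9.79 and 9.40 on OP50. All OP50 arrays were above all others. At 3 days the levels were 5.57, 5.04 and 5.86 on CNCM I-3690, then 5.53, 6.06 and 5.66 on CNCM I-4317, and 5.82, 6.02 and 6.20 on OP50, which overlapped.

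Against OP50 at 10 days *lys-7* was lower on CNCM I-3690 (log2 difference -1.76, 3.38-fold lower, SE 0.31, adjusted p = 0.0227) and on CNCM I-4317 (log2 difference -1.95, 3.88-fold lower, SE 0.31, adjusted p = 0.00897). The first lost its call without OP50 replicate 2 or CNCM I-3690 replicate 1 (adjusted p = 0.107 and 0.103). The 2 *L. rhamnosus* diets differed by 0.20 (95% interval -0.47 to 0.86). At 3 days the differences from OP50 were -0.52 with CNCM I-3690 and -0.26 with CNCM I-4317 (adjusted p = 0.407 and 0.850). *lys-7* rose with age by 2.11, 1.65 and 3.35 on CNCM I-3690, CNCM I-4317 and OP50 (SE 0.31 each, adjusted p = 0.000138, 0.00125 and 4.87e-06), which is 10.2-fold on OP50. The differences of these changes from the OP50 change, -1.24 and -1.69, were not called (SE 0.44, adjusted p = 0.244 and 0.202). Without replicate 1 of CNCM I-4317 at 10 days, the second was -2.11 with adjusted p = 0.0452. In order of mean level, *lys-7*, *ilys-2* and *ilys-3* each had OP50 at 10 days first, separated from the next group, then the 2 *L. rhamnosus* groups at 10 days, which overlapped each other, and then the 3 groups at 3 days, which overlapped among themselves.

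**Figure D2:**
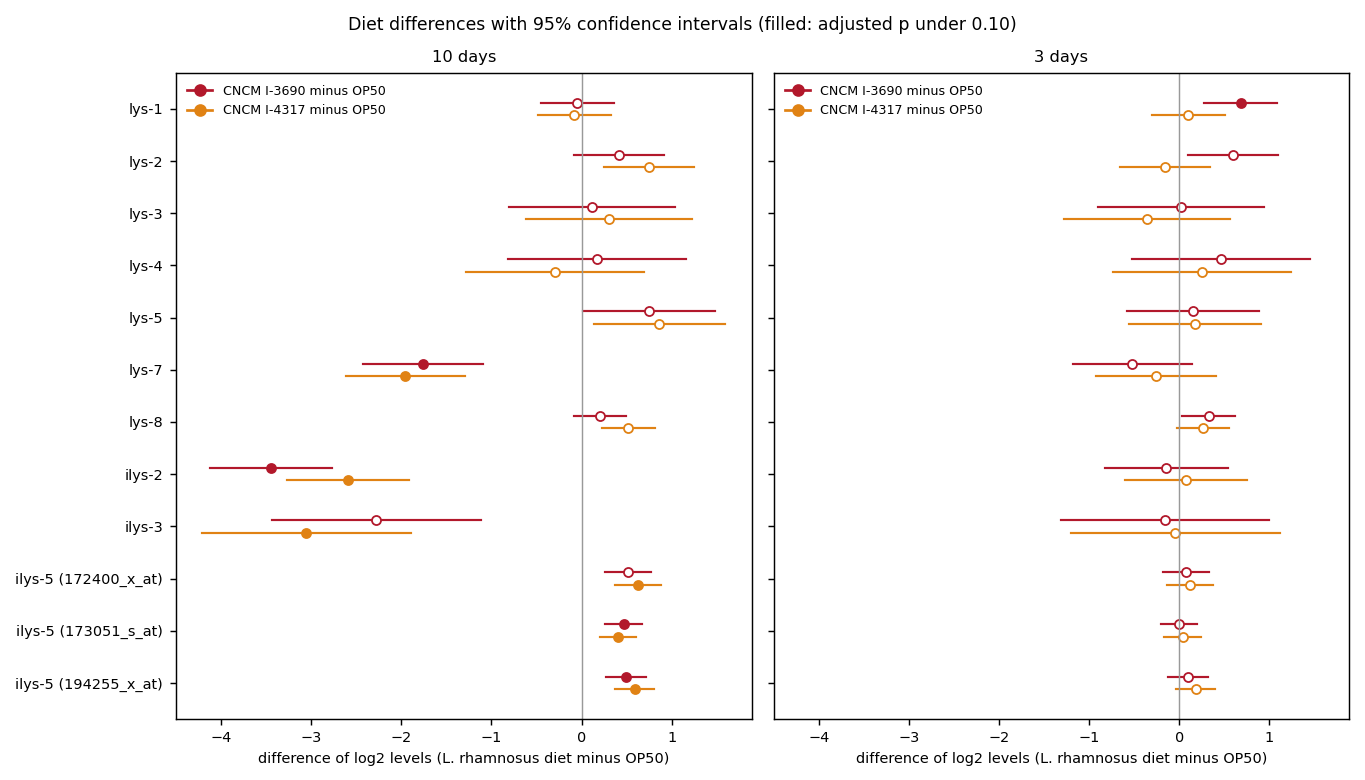
Differences of log2 level between each L. rhamnosus diet and OP50 for the 12 probe sets, at 10 days on the left and at 3 days on the right. Circles are limma estimates, filled where the adjusted p was under 0.10, and lines are 95% confidence intervals. At 10 days lys-7, ilys-2 and ilys-3 lie left of 0 on both diets and ilys-5 right of it, while at 3 days lys-1 on CNCM I-3690 is the one filled circle.

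*lys-1*, *lys-2* and *lys-3* are direct neighbours on chromosome V in the RefSeq annotation of assembly WBcel235. *lys-1* is a gut lysozyme known for its part in defence against *Serratia marcescens*. At 10 days its level was 7.19 to 7.36 on CNCM I-3690, 7.16 to 7.41 on CNCM I-4317 and 6.97 to 7.77 on OP50, with no difference called. The highest of these, OP50 replicate 1, was also the array of highest pharynx (2.70), body muscle (6.46) and intestine (4.90) list means at 10 days. The 3-day levels of *lys-1* were 8.33, 8.34 and 7.67 on CNCM I-3690, then 7.67, 7.56 and 7.37 on CNCM I-4317, and 7.49, 7.55 and 7.26 on OP50. The CNCM I-3690 arrays were all above the OP50 arrays, and replicate 3 was the lowest of its group on each diet. The 3-day difference from OP50 was 0.68 on CNCM I-3690, 1.60-fold (SE 0.19, adjusted p = 0.0650), and 0.10 on CNCM I-4317 (95% interval -0.30 to 0.50, adjusted p = 0.917). On the same 3 CNCM I-3690 arrays the sperm list averaged 7.12, 7.08 and 5.92 and the intestine list 5.47, 5.42 and 5.22, against 4.78 to 4.995 for the intestine list on OP50. The pharynx list averaged 3.02, 3.09 and 2.69 there against 2.25 to 2.58 on OP50, with 2 of 12 genes called higher. The body muscle list averaged 7.61, 7.58 and 7.35 against 6.96 to 7.09, with 1 of 11 called higher. Since 3.85% of all probe sets were called higher in this comparison, the body muscle count was near the background. Replicate 3 was the lowest of the CNCM I-3690 arrays on these 4 lists, as for *lys-1*. On the oocyte and eggshell list it was the highest (8.06, 8.02 and 8.19 in replicate order). The part of the lists in the *lys-1* difference was not tested.

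The *lys-1* call was lost without OP50 replicate 2 or 3 or CNCM I-3690 replicate 1 or 2 (adjusted p = 0.135, 0.204, 0.302 and 0.294). Without CNCM I-3690 replicate 3, *lys-2* (0.86, adjusted p = 0.0278) and *lys-8* (0.42, adjusted p = 0.0996) were also called higher than on OP50, and *lys-1* (0.80, adjusted p = 0.0350) and *lys-2* (1.02, adjusted p = 0.0315) higher than on CNCM I-4317. *lys-1* fell with age on CNCM I-3690 by 0.82 (SE 0.19, adjusted p = 0.00464), and its age changes of -0.28 on CNCM I-4317 and -0.09 on OP50 were not called (adjusted p = 0.365 and 0.861). The age change on CNCM I-3690 differed from that on OP50 by -0.73 (adjusted p = 0.258), not called, and by -0.95 without CNCM I-3690 replicate 3 at 3 days (adjusted p = 0.0466).

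*lys-2*, a protist-like lysozyme, had levels of 7.22, 7.03 and 6.90 on CNCM I-3690, then 7.58, 7.41 and 7.15 on CNCM I-4317, and 6.92, 6.49 and 6.48 on OP50 at 10 days. Its 3-day levels were 7.50, 7.22 and 6.55, 6.62, 6.36 and 6.04, and 6.05, 6.64 and 6.81 on the same diets. The CNCM I-4317 arrays at 10 days were all above those at 3 days, and the other diets overlapped between ages. *lys-2* rose with age on CNCM I-4317 by 1.04, 2.06-fold (SE 0.24, adjusted p = 0.00460), while its age changes were -0.04 on CNCM I-3690 and 0.13 on OP50 (adjusted p = 0.939 and 0.840). The change on CNCM I-3690 less that on CNCM I-4317 was -1.08 (SE 0.33, adjusted p = 0.678), and -1.35 without CNCM I-3690 replicate 3 at 3 days (adjusted p = 0.0983). The 10-day difference of CNCM I-4317 from OP50, 0.75, was not called (95% interval 0.25 to 1.25, adjusted p = 0.224).

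*lys-3*, the third of these neighbours, was at 3.56, 1.88 and 1.91 on CNCM I-3690 at 10 days, then 2.06, 2.28 and 3.58 on CNCM I-4317, and 2.90, 2.59 and 1.52 on OP50. At 3 days it was 0.51 to 1.36 over the 3 diets, below the median of each array. Every 10-day array was above every 3-day array, with 1 high array on each *L. rhamnosus* diet. The rises were 1.36, 1.93 and 1.27 (SE 0.43 each, adjusted p = 0.0299, 0.00440 and 0.0959). On OP50 the call was lost without any of the 3-day arrays or without replicate 1 or 2 at 10 days (adjusted p = 0.153 to 0.249), and with trended robust moderation of the variances (0.159), and on CNCM I-3690 without replicate 1 at 10 days (0.81, adjusted p = 0.169). Diet differences of *lys-3* were between -0.36 and 0.38 and none was called.

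*lys-4* and *lys-5* are neighbours on chromosome IV, next to *lys-6*, and are protist-like. *lys-4* at 10 days was 6.95, 7.13 and 7.21 on CNCM I-3690, then 5.32, 8.22 and 6.34 on CNCM I-4317, and 7.51, 6.65 and 6.60 on OP50. At 3 days it was 8.96, 8.77 and 8.99, 8.72, 8.62 and 8.74, and 8.06, 8.62 and 8.64 on the same diets. All arrays at 10 days were below those of their diet at 3 days, and the 10-day spread was widest on CNCM I-4317. It fell with log2 changes of -1.81, -2.07 and -1.52 on CNCM I-3690, CNCM I-4317 and OP50 (SE 0.47 each, adjusted p = 0.00895, 0.00442 and 0.0593), or 3.50-fold, 4.20-fold and 2.87-fold. The OP50 fall lost its call without replicate 2 or 3 of either age (adjusted p = 0.151 to 0.190) and with trended robust moderation of the variances (0.120). No diet difference of *lys-4* was called at either age.

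*lys-5* stayed between 0.52 and 1.69 on all arrays but replicate 2 of CNCM I-4317 at 10 days, which reached 2.78. It lay below the array median on every 3-day array and on every OP50 array at 10 days, where it may hold little signal. It was called in none of the 12 comparisons. Its 10-day differences from OP50 were 0.74 with CNCM I-3690 and 0.86 with CNCM I-4317 (adjusted p = 0.667 and 0.364). Without CNCM I-4317 replicate 1 at 10 days the second was 1.32 (adjusted p = 0.0939) and the age change on that diet 0.85 (adjusted p = 0.0693), both inside the threshold. The same 10-day CNCM I-4317 arrays, replicates 1 to 3, had intestine list means of 4.04, 4.63 and 4.31. Replicate 2 was the highest there, as for *lys-1*, *lys-4*, *lys-5*, *ilys-2*, *ilys-3* and *ilys-5* on 172400_x_at and 194255_x_at. It was the lowest for *lys-7* and *lys-8*, and in the middle for *lys-2*, *lys-3* and *ilys-5* on 173051_s_at. The part of the intestine list values was not tested.

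*lys-8*, a protist-like gene on chromosome II known as a target of the DBL-1 pathway, had 10-day levels of 7.20, 7.49 and 7.30 on CNCM I-3690, then 7.82, 7.46 and 7.65 on CNCM I-4317, and 7.21, 7.11 and 7.05 on OP50. At 3 days it was 7.42, 7.33 and 7.09, 7.26, 7.36 and 7.02, and 7.15, 6.70 and 7.01. The CNCM I-4317 arrays at 10 days were all above the OP50 arrays of that age, but the difference of 0.52 was not called (SE 0.14, adjusted p = 0.136), and was called without CNCM I-4317 replicate 2 (0.61, adjusted p = 0.0844). *lys-8* rose with age on CNCM I-4317 by 0.43 (adjusted p = 0.0372), a call lost without replicate 3 at 3 days or replicate 1 at 10 days (adjusted p = 0.141 and 0.153). Its age changes were 0.05 on CNCM I-3690 and 0.17 on OP50, not called.

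**Figure D3:**
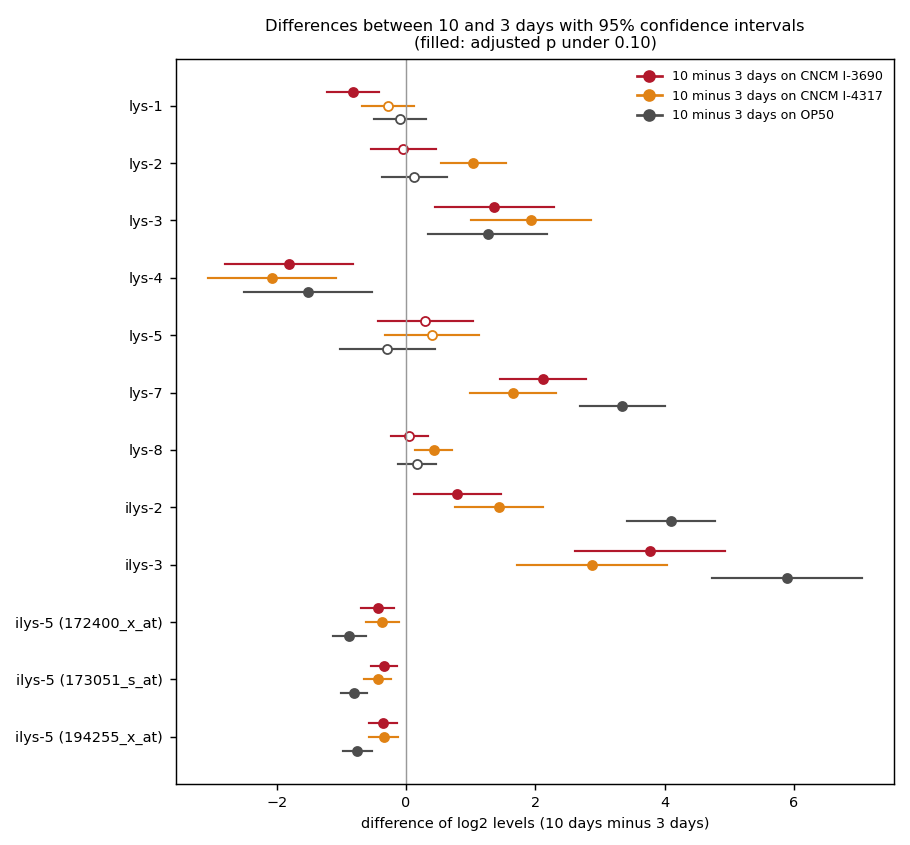
Differences of log2 level between 10 and 3 days for the 12 probe sets on each diet. Circles are limma estimates, filled where the adjusted p was under 0.10, and lines are 95% confidence intervals. The 4 rising genes have filled circles right of 0 and lys-4 and ilys-5 left of it on all 3 diets, and the OP50 estimates of lys-7, ilys-2 and ilys-3 lie right of those on both other diets.

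Set beside all probe sets, the 10-day comparisons with OP50 held more lysozyme calls than the background share. The 10 genes were chosen with earlier results of these data known, so such an excess may come from that choice and is no separate support. Of the 6 other lysozyme genes measured, several of them near the bottom of the scale, 0 were called against OP50 at 10 days on either diet. On CNCM I-3690, 2 of 12 lysozyme probe sets were higher and 2 lower, where 0.358% and 0.181% of all 22625 probe sets were called. On CNCM I-4317, 3 were higher and 3 lower, where the shares were 0.588% and 0.349%. At 3 days the counts against OP50 were 1 higher and 0 lower with CNCM I-3690 (background 3.85% and 2.27%). At an unadjusted p under 0.05, 3 of 12 passed there, of 4171 probe sets in all. The counts on CNCM I-3690 were thus near the background and no result about the set. On CNCM I-4317 the counts at 3 days were 0 in either direction (0.0796% and 0.0354%). There 0 of 12 also passed at an unadjusted p under 0.05, of 2217 probe sets in all. The median differences of the 12 probe sets were 0.19 and 0.36 at 10 days and 0.08 and 0.09 at 3 days, on CNCM I-3690 and CNCM I-4317, against medians of all probe sets of -0.01 and 0.01 at 10 days and -0.05 and -0.01 at 3 days. Since *ilys-5* supplies 3 of the 12, the calls at 10 days stand for 3 genes with CNCM I-3690 and 4 with CNCM I-4317.

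In the contrast of the *L. rhamnosus* strains no lysozyme was called at 10 days (background 0.0133% higher and 0.00442% lower) or at 3 days (0.106% and 0.0133%). At an unadjusted p under 0.05, 2 of 12 passed at each age, of 1634 and 2034 probe sets in all. With age, 4 lysozyme probe sets rose and 5 fell on CNCM I-3690 (background 17.3% and 12.6%), 6 rose and 4 fell on CNCM I-4317 (15.4% and 10.0%), and 4 rose and 4 fell on OP50 (5.41% and 5.37%). Of the 12 probe sets, 8 passed in the same direction on all 3 diets, 4 upward and 4 downward, which stand for 4 and 2 genes. The share of all probe sets that did so was not computed, so this count has no background beside it. For the age change on CNCM I-3690 against that on OP50, 0 lysozyme probe sets were higher and 1 lower (background 0.327% and 0.482%), and on CNCM I-4317 also 0 and 1 (0.159% and 0.0707%). Between the *L. rhamnosus* diets 0 of 12 were called by limma, with 0% of all probe sets called in either direction, and 1 of 12 passed at an unadjusted p under 0.05, as did 1228 of all probe sets.

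**Figure D4:**
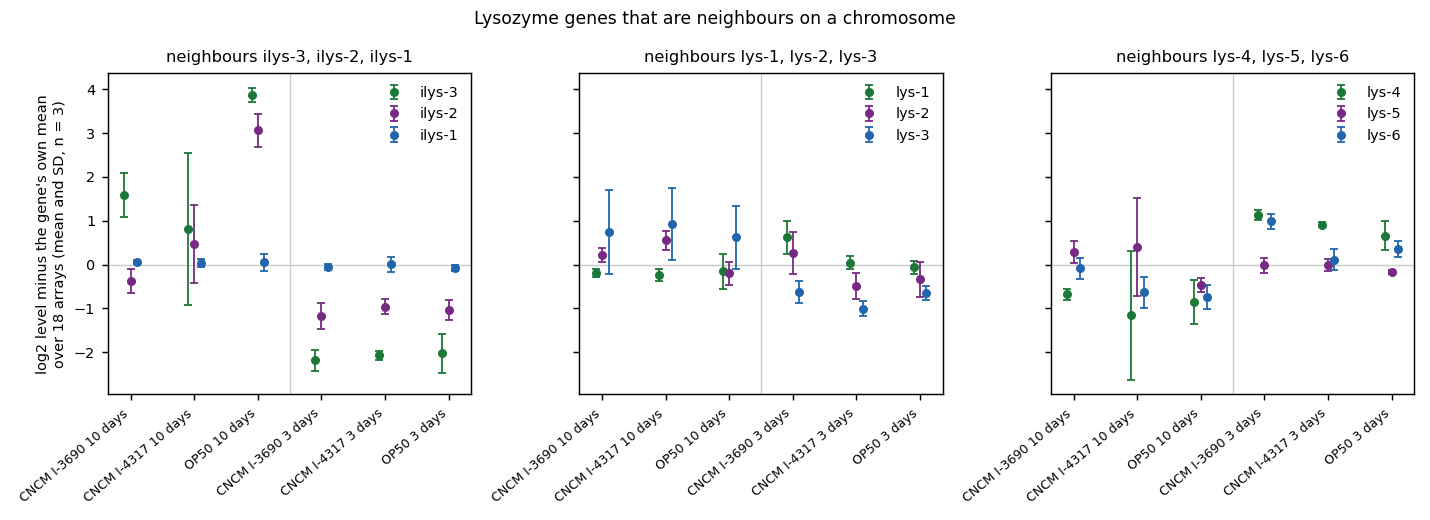
Log2 level minus each gene's own mean over the 18 arrays, for 3 sets of lysozyme genes that are neighbours on a chromosome. Points are group means and bars the SD of 3 arrays, with the 10-day groups on the left. ilys-3 and ilys-2 are both highest on OP50 at 10 days while the values of ilys-1 lie below the array median on every array, and lys-4 and lys-6 are both lower at 10 than at 3 days.

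*ilys-3*, *ilys-2* and *ilys-1* lie next to each other on chromosome IV. *ilys-1* read 0.27 to 0.71, below the array median on all 18 arrays, so neither a change nor its absence can be read from it. Of the 6 other lysozyme genes measured, *lys-6*, *lys-9*, *lys-10*, *ilys-1*, *ilys-4* and *ilys-6*, *lys-6* was the one called in any comparison. At 10 days *lys-6* was 2.27 to 2.75 on CNCM I-3690, 1.60 to 2.31 on CNCM I-4317 and 1.56 to 2.09 on OP50, and at 3 days 3.39 to 3.72, 2.54 to 2.97 and 2.74 to 3.06. It fell with age on the 3 diets (log2 changes -1.08, -0.74 and -1.11, adjusted p = 0.000535, 0.00978 and 0.00117), and was higher on CNCM I-3690 than on OP50 at 3 days by 0.63 (adjusted p = 0.0835). One further probe set carries both *lys-5* and *lys-6* in the annotation and was not used. *lys-9* and *ilys-6* were also below the array median on all 18 arrays and *lys-10* on 17, while *ilys-4* was above it on all, at 1.99 to 3.24.

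Other antimicrobial genes were measured by a list of saposin-like *spp*, defensin-like *abf*, caenacin *cnc* and antimicrobial *nlp* peptides, thaumatins and infection response genes. Among those named below, *cnc-2*, *cnc-7*, *abf-2*, *fipr-21*, *fipr-26* and *irg-7* were read by _x_at or _s_at probe sets, which may also match other transcripts. Of the 62 listed genes, 47 had a probe set annotated with their symbol alone, and counts of these need not stand for separate transcripts. Against OP50 at 10 days 3 were higher and 1 lower with CNCM I-3690 (background 0.358% and 0.181%) and 5 higher and 1 lower on CNCM I-4317 (0.588% and 0.349%). The saposin-like *spp-12* was higher by 2.0 and 2.05 (adjusted p = 0.00946 and 0.00678), the opposite direction to *lys-7* and *ilys-2*. *spp-4* was higher by 1.44 and *irg-3* by 1.37 on CNCM I-3690 (adjusted p = 0.0112 and 0.0612), and *fipr-26* by 1.85 and *irg-6* by 1.44 on CNCM I-4317 (adjusted p = 0.0643 and 0.0836). The defensin-like *abf-2* was lower on CNCM I-3690 (log2 difference -1.22, adjusted p = 0.0227) and *spp-18* lower on CNCM I-4317 (-1.18, adjusted p = 0.0804). At 3 days on CNCM I-3690 against OP50, *spp-23* (1.04), *fipr-21* (0.93) and *spp-16* (0.84) were higher and *irg-4* lower (-1.62), with adjusted p = 0.0734, 0.0507, 0.00599 and 0.0266. None was called by limma on CNCM I-4317, where 2 passed at an unadjusted p under 0.05, as did 2217 of all 22625 probe sets.

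With age 25 of the 47 rose and 6 fell on CNCM I-3690, 27 rose and 6 fell on CNCM I-4317, and 18 rose and 5 fell on OP50, with list medians of 0.75, 0.90 and 0.45 against 0.04, 0.03 and 0.02 over all probe sets. The shares of all probe sets called higher and lower were 17.3% and 12.6%, 15.4% and 10.0%, and 5.41% and 5.37%. The caenacins *cnc-7* and *cnc-4* led on CNCM I-3690 (5.79 and 5.51) and CNCM I-4317 (5.49 and 5.31), with *cnc-2* (5.0 on CNCM I-3690) and *abf-2* (4.69 on CNCM I-4317) next. On OP50 *abf-2* (4.98), *cnc-7* (4.33) and *cnc-4* (3.99) led. All of these had an adjusted p of at most 0.000106. The falls were led by *irg-7*, *spp-18* and *spp-23* on CNCM I-3690 (-2.25, -2.13 and -2.10). *spp-12* also differed in its age change from OP50, by 2.21 with CNCM I-3690 and 2.17 with CNCM I-4317 (adjusted p = 0.0557 and 0.0868), and so did *spp-4* on CNCM I-3690, by 1.43 (adjusted p = 0.0832).

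Of 38 immune regulators 35 were measured, and at 10 days none was called against OP50 on either diet by limma. At an unadjusted p under 0.05, 5 with CNCM I-3690 and 4 with CNCM I-4317 passed, as did 1646 and 2426 of all 22625 probe sets. The count on CNCM I-4317 was thus near the background. The one diet call was *sma-4*, a SMAD of the DBL-1 pathway, higher on CNCM I-3690 than on OP50 at 3 days by 0.84 (adjusted p = 0.0594). With age 4 rose and 5 fell on CNCM I-3690 (background 17.3% and 12.6%), 9 rose and 3 fell on CNCM I-4317 (15.4% and 10.0%), and 1 rose on OP50 (5.41%), so the counts on CNCM I-3690 and OP50 were near or below the background and no result about the list. *tir-1*, the adaptor at the head of the p38 cascade, rose on OP50 by 0.94 and on CNCM I-4317 by 1.0 (adjusted p = 0.0243 and 0.00699). *hsf-1*, the heat shock transcription factor, rose on CNCM I-3690 by 0.66 and on CNCM I-4317 by 0.92 (adjusted p = 0.00614 and 0.000648). *daf-16*, the forkhead factor of insulin signalling, rose on CNCM I-4317 by 0.49 (adjusted p = 0.00961), and the gut GATA factor *elt-2* fell there (-0.75, adjusted p = 0.0246). *elt-7*, another gut GATA factor, fell on both *L. rhamnosus* diets (-0.81 and -0.47, adjusted p = 0.00165 and 0.0553). The other calls were rises of *nhr-86*, *daf-4*, *mek-1*, *vhp-1*, *atf-7*, *nhr-49* and *nol-6* and falls of *nhr-8*, *fshr-1*, *pmk-2* and *pkd-2*, each on 1 or both *L. rhamnosus* diets.

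The age changes stood beside changes of tissue lists. Of 15 intestine genes, 2 rose and 10 fell on CNCM I-3690, 2 rose and 10 fell on CNCM I-4317, and 3 rose and 6 fell on OP50. Of 11 body muscle genes, 11, 11 and 9 fell, of 12 pharynx genes 6, 6 and 1 fell, and of 38 sperm genes 33, 32 and 21 fell, while 21, 18 and 4 of 22 oocyte and eggshell genes rose. Of all probe sets 12.6%, 10.0% and 5.37% were lower and 17.3%, 15.4% and 5.41% higher on the same diets, so the pharynx count on OP50 is near its background. The mean of the intestine list at 10 days was 4.25 to 4.40 on CNCM I-3690, 4.04 to 4.63 on CNCM I-4317 and 4.27 to 4.90 on OP50, and these ranges overlapped. The part of these shifts in the lysozyme changes was not tested.

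Within the lysozymes, *lys-7*, *ilys-2* and *ilys-3* ran together over the 18 arrays, with Pearson's r of 0.92 for *lys-7* and *ilys-3*, 0.88 for *lys-7* and *ilys-2*, and 0.89 for *ilys-2* and *ilys-3*. The 3 probe sets of *ilys-5* correlated at 0.92 to 0.97 with each other and at -0.92 to -0.82 with those genes. The arrays share the 6 groups, so these values describe the group differences above as much as anything within groups. The genes of most similar profile, among 12760 probe sets above the 40th percentile of mean level, were *C44C10.9*, *tnc-2* and *myo-2* for *lys-1* (r = 0.953, 0.917 and 0.911), *dod-23*, *abf-2* and *C30F12.3* for *lys-7* (0.919, 0.916 and 0.915), *ins-2*, *cutl-20* and *C33D9.5* for *ilys-2* (0.936, 0.904 and 0.900), *ins-2*, *cpr-1* and *T05E12.3* for *ilys-3* (0.946, 0.944 and 0.934), and *ttr-35*, *cpr-5* and *gpx-5* for *ilys-5* (0.925, 0.876 and 0.876), each over 18 arrays. Of these, *tnc-2* and *myo-2* are on the pharynx list and *cpr-1* is on the intestine list.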

How the data were processed

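The authors normalised the arrays with RMA (affy package; version and genome build are not given in the sources used here), and the deposited values are log2 probe set levels, used as they stand. Probe sets were named from the array's annotation, and neighbours were taken from RefSeq (WBcel235). limma 3.58.1 in R 4.3.3 was fitted to all 18 arrays with 1 mean for each of 6 groups, 12 comparisons (6 of diet, 3 of age, 3 of age changes) and Benjamini-Hochberg adjustment over 22625 probe sets; calls had an adjusted p under 0.10, and intervals are 95%. The script was checked on simulated data. Depth has no meaning for arrays, whose number limits precision. No detection calls were used. For a listed gene with several probe sets, the one with the highest mean level was used. The named genes were all lysozyme probe sets, the other measured lysozymes, up to 3 called antimicrobial genes in each direction, the called immune regulators, and the 3 genes most correlated with each lysozyme called by diet. The lysozymes, lists and tests were chosen with earlier results of these data known. Alternatives were thresholds of 0.05 and 0.01, median centring, cyclic loess, a filter at the 40th percentile, trended robust moderation, a replicate block, arrays of 1 time only, and leaving out each array.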

Additional observations from a re-analysis of the deposited data

Results flagged for a closer look

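The *ilys-2* age change was singled out in 2 contrasts, because the same age contrast differed between diets by a test of the difference itself. The log2 change of *ilys-2* between 10 and 3 days on CNCM I-3690 less that on OP50 was -3.30 (SE 0.45, adjusted p = 0.00438 by limma), and all 3 CNCM I-3690 arrays at 10 days were below all 3 OP50 arrays. The change on CNCM I-4317 less that on OP50 was -2.66 (SE 0.45, adjusted p = 0.0338), again with all 3 arrays below. Over 17 alternatives each, the adjusted p was 0.00298 to 0.0187 for the first and 0.00179 to 0.106 for the second.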

How the results depend on the processing

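No lysozyme call changed sign under any alternative, and 24 of 40 calls held under every alternative other than the stricter thresholds. At a threshold of 0.05, the calls for CNCM I-3690 against OP50 at 3 days fell to 0. At 0.01 there were 0 for that comparison, 1 and 2 for CNCM I-3690 and CNCM I-4317 against OP50 at 10 days, 4 for 10 against 3 days on CNCM I-3690, and 0 for the age change on CNCM I-4317 against that on OP50. Fits on only the 9 arrays of 10 days gave 1 call for CNCM I-3690 and 2 for CNCM I-4317 against OP50, with fewer arrays to estimate the spread. There *lys-7* on CNCM I-3690 had an adjusted p of 0.142 and *ilys-3* on CNCM I-4317 one of 0.160. Every *ilys-5* call of both diets was also lost in these fits (adjusted p = 0.145 to 0.301). Leaving out 1 array gave 0 to 3 calls for CNCM I-3690 against OP50 and 0 to 2 between the *L. rhamnosus* diets, both at 3 days. At 10 days it gave 1 to 3 for CNCM I-3690 against OP50 (1 without OP50 replicate 2) and 0 to 1 between the *L. rhamnosus* diets. For the differences of age changes it gave 1 to 2, 0 to 2 and 0 to 1, for CNCM I-3690 against OP50, CNCM I-4317 against OP50, and the *L. rhamnosus* diets against each other. The filter kept all 12 probe sets, and under it *ilys-3* on CNCM I-3690 at 10 days passed the threshold (adjusted p = 0.0774). *ilys-5* 173051_s_at on CNCM I-4317 at 10 days lost its call under median centring and under the filter (adjusted p = 0.116 and 0.1005). Trended robust moderation took the age calls of *lys-3* and *lys-4* on OP50. Under cyclic loess the age rise of *lys-8* on CNCM I-4317 had an adjusted p of 0.354. Median centring moved the median of all probe sets to 0.13 for 10 against 3 days on CNCM I-3690 (0.04 as deposited).

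Deviations of same-numbered arrays from their group means were correlated, and in 0 of 9 comparisons was every correlation over 0.1 (range -0.32 to 0.47). Some came near it, with 0.31, 0.195 and 0.095 for CNCM I-3690 against OP50 at 10 days. Between the *L. rhamnosus* diets at 3 days they were 0.26, 0.05 and 0.47. At 3 days the sperm list mean was lowest in replicate 3 on each diet. Whether the replicate numbers pair the samples is thus not settled by this rule. With the number as a block, 3 calls were lost: *ilys-5* 194255_x_at on CNCM I-3690 and 173051_s_at on CNCM I-4317 at 10 days (adjusted p = 0.109 and 0.106) and the age rise of *lys-3* on OP50 (0.108). The block lowered the adjusted p of *lys-1* on CNCM I-3690 against OP50 at 3 days by limma from 0.0650 to 0.0245.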
